A study of Mus musculus with 2 samples.

Results

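Mir21a is the mouse gene of miR-21, and its reads were followed here in small RNA libraries of J1 mouse embryonic stem cells (mESCs) in which MEK/ERK signaling was suppressed. Its members were the sequence tags, that is the distinct read sequences with their counts, that matched the Mir21a hairpin of the GENCODE M21 annotation perfectly over their whole length. This rule found 31 tags of the 8598 that matched any of 1174 annotated mouse miRNA hairpins and of 1695245 distinct tags in all, and it used neither the counts nor the treatment. J1 is an established male mESC line, and both groups were the same unmodified line grown without feeder cells on gelatin in serum replacement medium with 1000 U/mL LIF, the cytokine that holds mESCs undifferentiated. The PD group received 1 μM PD0325901 (PD), an inhibitor of the kinases MEK1 and MEK2 that phosphorylate ERK, for 24 h, and the DMSO group received the solvent for 24 h. Each group was 1 library, made from RNA pooled over 3 independent experiments, so that no replicate spread can be given, and the values below carry no test between treatments.

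miR-21 is made from a primary transcript that overlaps the last part of Vmp1, a gene for a membrane protein of autophagy. Drosha cuts the hairpin out of this transcript, Dicer removes its loop, and 1 arm of the resulting duplex, mostly the 5p arm, is kept in Argonaute. Its transcription is known to be driven by AP-1, a dimer of Fos and Jun proteins that ERK signaling raises, and by STAT3, which LIF activates. miR-21 is best known as a miRNA that is high in tumors and in fibrotic and inflamed tissue, and its known targets include Pdcd4, Spry1 and Reck, several of which restrain growth or ERK signaling. The comparison of PD with DMSO thus asks what happens to a known ERK and AP-1 target when MEK is inhibited in mESCs.

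The hairpin lies on GRCm38 at chr11:86584067-86584158 on the minus strand and is 92 nt long. It falls inside exon 12 of the transcript Vmp1-201, at chr11:86583865-86585451, in the part that the annotation gives as UTR, and 1 of 8 annotated Vmp1 transcripts holds it. The mature sequences of both arms are shown first, because the arm and the seed define what the miRNA is. They are those of RefSeq on GRCm38.p6, read 5′ to 3′, at chr11:86584120-86584141 for miR-21a-5p and chr11:86584082-86584103 for miR-21a-3p, both on the minus strand. Capitals mark the seed, bases 2 to 8, which pairs with target mRNAs. The last sequence is the most frequent 3p tag of these libraries, at chr11:86584081-86584102, which starts 1 nt further in than the RefSeq form and so carries another seed.
miR-21a-5p: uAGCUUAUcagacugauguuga
miR-21a-3p: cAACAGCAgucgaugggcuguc
miR-21a-3p, most frequent tag: aACAGCAGucgaugggcugucu

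The 5p arm was read as a ladder of 3′ ends, shown because the results turn on these lengths. All of these forms start at the same base and carry the same seed, and capitals here mark the bases by which each exceeds the 20 nt form. All of these bases are templated, that is encoded in the hairpin.
20 nt: uagcuuaucagacugauguu
21 nt: uagcuuaucagacugauguuG
22 nt, the RefSeq form: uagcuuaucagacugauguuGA
23 nt, the most frequent form over both libraries: uagcuuaucagacugauguuGAC
24 nt: uagcuuaucagacugauguuGACU

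Sequencing depth was 18870345 clean reads for DMSO and 20944808 for PD. Levels are given as reads per 1000000 clean reads (RPM), and the 3 reads that a count of 0 allows correspond to 0.159 RPM for DMSO and 0.143 RPM for PD. Reads that matched a miRNA hairpin were 11.6% of all in DMSO and 10.1% in PD, and reads of 20 to 24 nt were 63.0% and 52.0%. The libraries thus differed in composition as well as in treatment, and library and treatment cannot be told apart. All intervals below are exact 95% intervals for the counting of reads alone. Stem cell identity was checked on 6 miRNAs of the miR-290 to miR-295 and miR-302 clusters, and 6 of 6 stood at 1 RPM or more in both libraries. Their summed level was 6978 RPM in DMSO and 6162 RPM in PD. It came almost wholly from miR-291a-3p, miR-292a-3p, miR-294-3p and miR-295-3p, each lower in PD per clean read. The other scalings given below turn this direction for some of them, miR-292a-3p and miR-295-3p among them. The miR-302 arms were near the floor and higher in PD, miR-302b-3p at 1.43 and 1.77 RPM and miR-302d-3p at 2.44 and 5.68 RPM. The miR-302b-3p fold change of 1.23 had an interval that includes 1.

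Mir21a gave 10522 reads in DMSO and 10803 in PD, which were 0.482% and 0.512% of the reads that matched a hairpin. Of its 31 tags, 24 belonged to the 5p arm and 7 to the 3p arm, and 0 tags lay outside both. They were 18 to 27 nt long, 26 were read in DMSO, 23 in PD and 18 in both, and 19 had fewer than 10 reads in each library. No tag matched a second hairpin, so that the reads can be assigned to this locus without sharing among annotated hairpins. The coverage along the hairpin formed a 5p plateau and a far lower 3p plateau in both libraries, with no read over the loop between them.

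**Figure D1:**
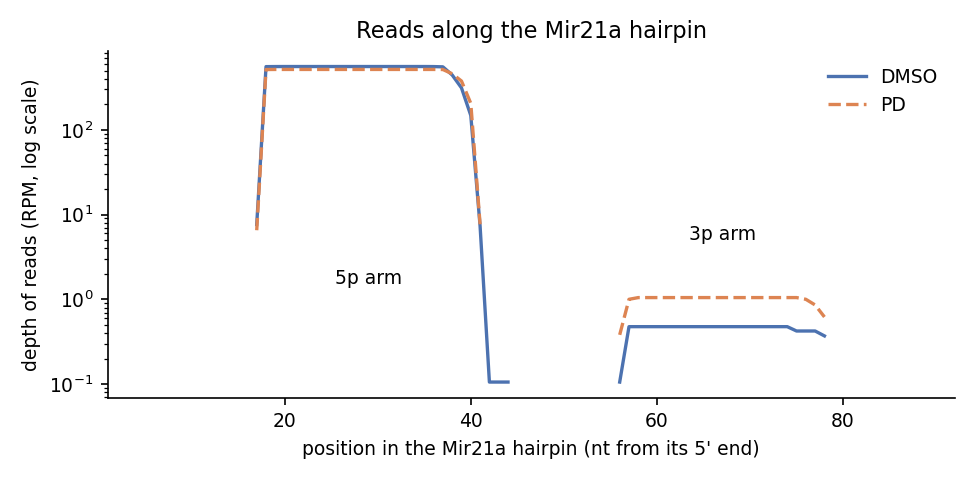
Depth of reads in RPM (log scale) at each position of the Mir21a hairpin, counted in nt from its 5′ end, for DMSO (solid line) and PD (dashed line); positions without reads have no line. The 5p arm stands near 557 RPM in DMSO and 515 RPM in PD, and the 3p arm near 0.477 and 1.05 RPM.

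The guide arm miR-21a-5p differed little in level between the treatments. It had 10513 reads, or 557 RPM (547 to 568), in DMSO and 10781 reads, or 515 RPM (505 to 525), in PD. PD stood at 0.924 times DMSO (0.899 to 0.949), a log2 fold change of -0.11, which does not reach the 1.5-fold criterion of the study. Divided by the reads that match a hairpin, PD stood at 1.06 times DMSO, and divided by the reads of 20 to 24 nt at 1.12 times. With the scaling factors of TMM and of DESeq2 it was 1.04 for each, so that the direction of the miR-21a-5p difference turned with the scaling.

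Set among the other miRNAs, miR-21a-5p lay near the middle. In all, 499 miRNAs reached 1 RPM in either library and were taken as detected, and identical mature miRNAs of several hairpins were counted once. Their median log2 fold change was -0.17, with quartiles of -0.41 and 0.06, and 278 of them (55.7%) had a lower fold change than miR-21a-5p. The alternative scalings shifted every log2 fold change upwards by 0.20 with hairpin reads, 0.28 with reads of 20 to 24 nt and 0.17 with TMM and with DESeq2, and such a uniform shift leaves the distance of miR-21a-5p from the median of all detected miRNAs as it is. Of the 2 Mir21a arms, 1 was past 1.5-fold, the 3p arm on the higher side, but it reached 1 RPM in PD alone, so that the filter favored a call in this direction. Among all detected miRNAs, 69 (13.8%) were past 1.5-fold lower and 30 (6.01%) past 1.5-fold higher, and with hairpin reads as the denominator 30 were lower and 48 higher, so that the lower ones made up 69.7% of those past the criterion in the first case and 38.5% in the second.

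**Figure D2:**
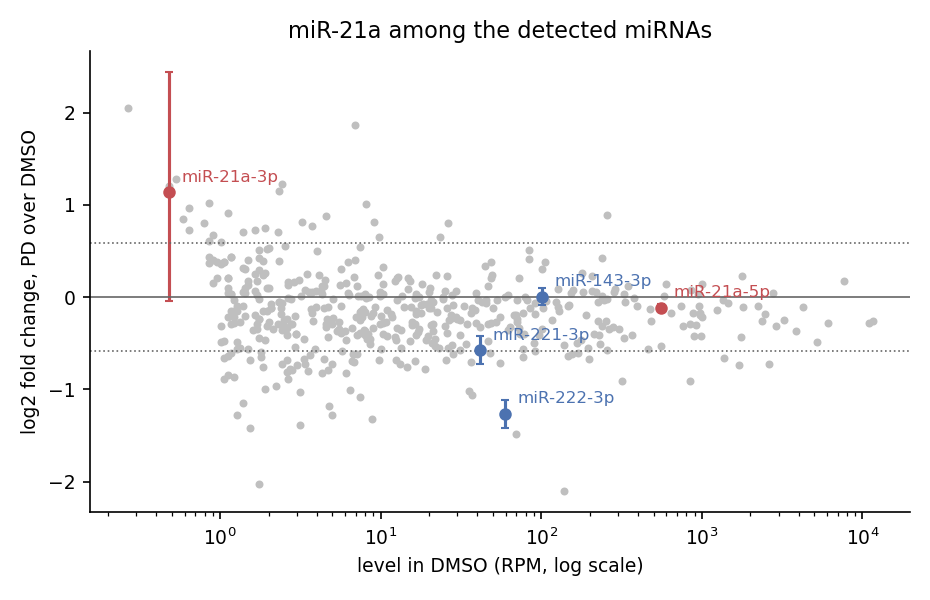
Log2 fold change of PD over DMSO against the level in DMSO (RPM, log scale) for the detected miRNAs with reads in both libraries (grey), with both miR-21a arms (red) and miR-221-3p, miR-222-3p and miR-143-3p (blue) marked with 95% counting intervals; dotted lines show 1.5-fold. miR-21a-5p lies at -0.11, just above the median of -0.17, and its sign turns with the other denominators, while miR-21a-3p has an interval that includes 0 with clean reads and lies above 0 with the other 4 scalings.

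By level, miR-21a-5p was the miRNA of rank 41 in DMSO and of rank 40 in PD. Its neighbours in DMSO were miR-292a-5p at 596 RPM and miR-192-5p at 581 RPM above it, and miR-543-3p at 554 RPM and miR-291a-3p at 481 RPM below it. The interval of miR-21a-5p, 547 to 568 RPM, covers the level of miR-543-3p, so that these 2 miRNAs were not separated by counting, while the other 3 neighbours lie outside it. In PD, miR-192-5p at 586 RPM and miR-130a-3p at 566 RPM stood above it, and the neural miR-124a-3p at 472 RPM and miR-382-5p at 452 RPM below it. miR-21a-5p thus stood above miR-291a-3p, which had 401 RPM in PD, and below miR-294-3p of the same stem cell cluster, which had 2896 RPM in DMSO and 2339 RPM in PD. Among the miRNAs of 100 RPM or more, those with the fold change nearest to miR-21a-5p were miR-210-3p at 0.922, miR-106b-5p at 0.929, let-7a-5p at 0.930, miR-423-5p at 0.930 and miR-185-5p at 0.932, a likeness that rests on 1 pair of libraries.

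The passenger arm miR-21a-3p was rare in both libraries. It had 9 reads, or 0.477 RPM (0.218 to 0.905), in DMSO and 22 reads, or 1.05 RPM (0.658 to 1.59), in PD. PD stood at 2.20 times DMSO (0.975 to 5.43), and the interval includes 1. With hairpin reads as the denominator the fold change was 2.53 (1.12 to 6.23), with reads of 20 to 24 nt 2.67 (1.18 to 6.58), with TMM 2.48 (1.10 to 6.11) and with DESeq2 2.48 (1.10 to 6.12), so that whether the interval of miR-21a-3p reaches 1 turned with the scaling. The 3p arm made up 0.0855% (0.0391 to 0.162) of the arm reads in DMSO and 0.204% (0.128 to 0.308) in PD, or 1 read of 3p per 1168 reads of 5p in DMSO and per 490 in PD. Of its reads, 7 of 9 in DMSO and 13 of 22 in PD started as the most frequent tag shown above, and 2 and 8 started as the RefSeq form. Over 155 pairs of arms that were both detected, the rarer arm made up a median of 15.5% of the reads of the pair. Among them, 5 pairs had a lower share than the 0.145% of Mir21a in both libraries together. Pairs with a rarer arm under 1 RPM in both libraries were left out, so that this choice favored higher shares. Mir21a entered it through PD alone, where miR-21a-3p had 1.05 RPM against 0.477 RPM in DMSO.

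While the level of miR-21a-5p differed little, its lengths differed between the libraries by more than the counting error. The 20 nt form had 2048 reads in DMSO and 1154 in PD, or 109 RPM (104 to 113) and 55.1 RPM (52.0 to 58.4). The 21 nt form had 2407 and 1673 reads, or 128 RPM (123 to 133) and 79.9 RPM (76.1 to 83.8). Both shorter forms thus stood lower in PD, at 0.508 times DMSO (0.472 to 0.546) for 20 nt and 0.626 times (0.588 to 0.667) for 21 nt.

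The RefSeq form of 22 nt had 3034 and 3499 reads, or 161 RPM (155 to 167) and 167 RPM (162 to 173), with a fold change of 1.04 (0.989 to 1.09). The 23 nt form, which carries 1 more cytosine, had 2631 and 4113 reads, or 139 RPM (134 to 145) and 196 RPM (190 to 202), and stood higher in PD at 1.41 times DMSO (1.34 to 1.48). The 24 nt form had 130 and 155 reads, with a fold change of 1.07 (0.845 to 1.37). The 22 nt form was the most frequent in DMSO and the 23 nt form in PD. The rare short forms went with the 20 nt form, since the 19 nt form had 70 reads in DMSO and 21 in PD and the 18 nt form 16 and 2.

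**Figure D3:**
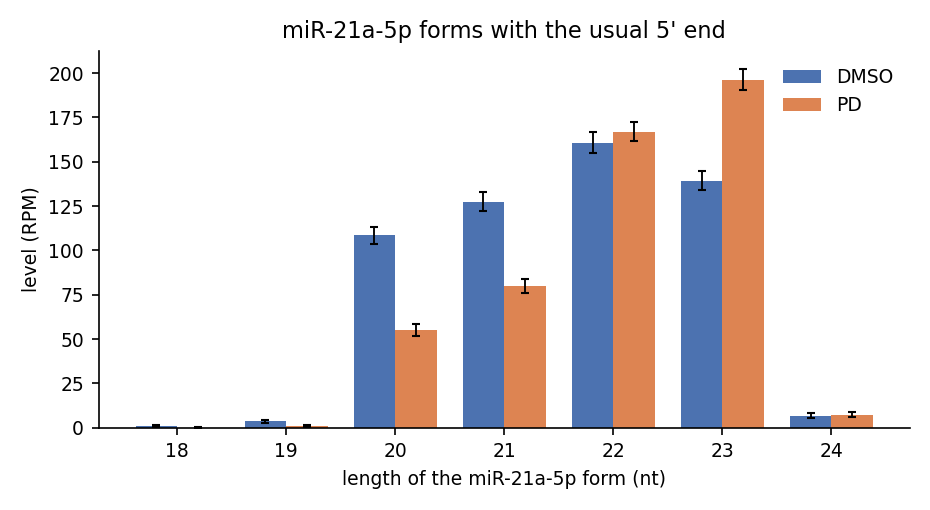
Level in RPM of each length of miR-21a-5p with the usual 5′ end in DMSO (blue) and PD (orange), with exact 95% counting intervals as error bars. The 20 nt form stands at 109 RPM in DMSO and 55.1 RPM in PD and the 23 nt form at 139 and 196 RPM, and their order between the libraries was the same with hairpin reads or reads of 20 to 24 nt as the denominator.

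Among the miR-21a-5p reads with the usual 5′ end, those of 21 nt or less were 43.9% (43.0 to 44.9) in DMSO and 26.8% (26.003 to 27.7) in PD. Those of 22 nt or more were 56.1% (55.1 to 57.0) and 73.2% (72.3 to 74.0). The mean length was 21.63 nt in DMSO and 22.03 nt in PD, a difference of 0.410 nt. These shares are taken within 1 miRNA and do not depend on the denominator. The direction of the single forms also did not turn with it, since the 20 nt form stood at 0.582 and 0.615 times DMSO, the 21 nt form at 0.718 and 0.758 times and the 23 nt form at 1.61 and 1.71 times with hairpin reads and with reads of 20 to 24 nt. The same choice matters when 1 tag is taken for the miRNA, since the tag identical to the RefSeq sequence gives a fold change of 1.04 and the most frequent tag 1.41, against 0.924 for all tags of the arm.

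The shift to longer reads was shared by most abundant miRNAs of the PD library. Of 160 miRNAs with at least 500 reads of the usual 5′ end in each library, 141 (88.1%) had a higher mean length in PD, with a median difference of 0.0632 nt, quartiles of 0.0125 and 0.184 nt and a range of -0.126 to 0.934 nt. miR-21a-5p had the rank 10 by this difference, and 2 of 82 5p arms had a larger one, miR-125a-5p at 0.526 nt and let-7i-5p at 0.521 nt. The 7 other miRNAs above it were 3p arms, led by miR-148b-3p at 0.934 nt and miR-341-3p at 0.892 nt. Other ERK-linked miRNAs differed among themselves, with 0.317 nt for miR-222-3p, -0.0119 nt for miR-221-3p and 0.0136 nt for miR-143-3p. The share of reads of 20 to 24 nt in the whole library differed along with these lengths, at 63.0% in DMSO and 52.0% in PD, and its part in the miR-21a-5p lengths was not tested.

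**Figure D4:**
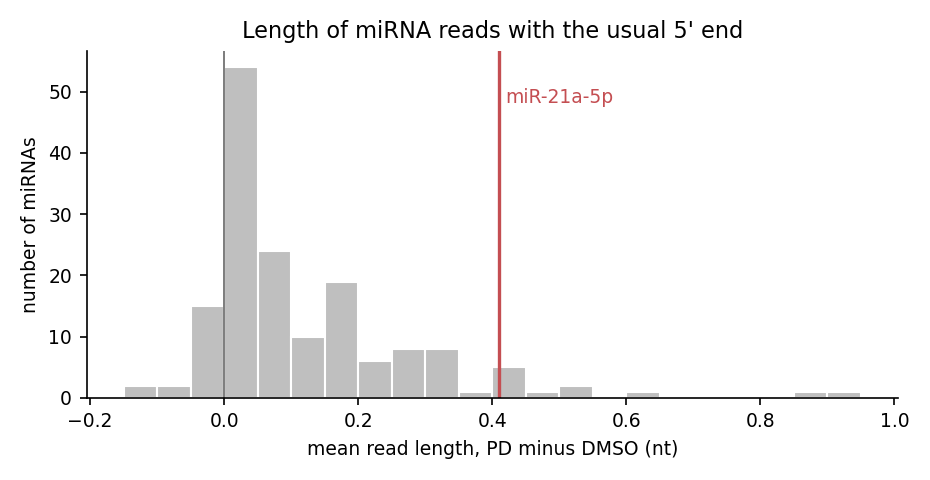
Number of miRNAs by the difference in mean read length (PD minus DMSO, in nt) for the 160 miRNAs with at least 500 reads of the usual 5′ end in each library, in bins of equal width; the red line marks miR-21a-5p. Most miRNAs lie above 0, with a median of 0.0632 nt, and miR-21a-5p lies at 0.410 nt with 9 miRNAs further right.

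The 3′ end of miR-21a-5p was also more spread out than that of most miRNAs. Its most frequent length, 22 nt in DMSO and 23 nt in PD, held 29.3% of the reads of the usual 5′ end in DMSO and 38.7% in PD, against medians of 70.9% and 74.6% over the 160 miRNAs, and 2 miRNAs in DMSO and 8 in PD had a lower share. The 23 nt tag alone held 25.03% (24.2 to 25.9) of all 5p reads in DMSO and 38.2% (37.2 to 39.1) in PD.

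The 5′ end, which sets the seed and is cut by Drosha, was nearly uniform. It was the usual one in 98.3% (98.1 to 98.6) of the 5p reads in DMSO and 98.5% (98.2 to 98.7) in PD. Reads that start 1 nt earlier were 144 and 137, or 1.37% (1.16 to 1.61) and 1.27% (1.07 to 1.5005), with intervals that overlap, and reads that start 1 nt later were 22 and 24. The earlier start is shown because it moves the seed by 1 base, capitals marking the new bases 2 to 8, at chr11:86584120-86584142.
miR-21a-5p, 1 nt earlier: aUAGCUUAucagacugauguuga

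Some miR-21a-5p reads carried bases at the 3′ end that the hairpin does not encode. Terminal nucleotidyl transferases are known to add such bases to miRNAs. Such tails of 1 to 3 nt were searched on templated parts of 18 nt or more, and a tail base that equals the template cannot be seen. They were found in 470 reads, or 4.28% (3.91 to 4.67), in DMSO and 510 reads, or 4.52% (4.14 to 4.92), in PD, over 44 tags. In RPM this was 24.9 and 24.3, with a fold change of 0.978 (0.861 to 1.11). Most followed a templated part that ends where the 23 nt form ends, 84.0% in DMSO and 86.1% in PD. The most frequent tails are shown with the added base in capitals.
23 nt form with A: uagcuuaucagacugauguugacA
23 nt form with G: uagcuuaucagacugauguugacG
22 nt form with A: uagcuuaucagacugauguugaA

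A tail of 1 adenosine made up 64.5% (60.0 to 68.8) of the tailed miR-21a-5p reads in DMSO and 61.4% (57.0 to 65.6) in PD, and a tail of 1 guanosine 22.6% and 24.1%. Visible tails of 1 uridine made up 1.06% and 1.96%, or 5 and 10 reads. The hairpin base after the 23 nt form is itself a U, so that a uridine added there counts as the templated 24 nt form. How often uridine was added can thus not be compared with adenosine or guanosine. Among reads whose templated part was 23 nt, 12.97% (11.8 to 14.2) were tailed in DMSO and 9.56% (8.73 to 10.5) in PD, and the share with a tail of adenosine was 8.93% (7.94 to 10.005) and 6.31% (5.62 to 7.06). Both shares were lower in PD, with intervals that do not overlap. The tailed reads behind the first share were 392 in DMSO and 435 in PD, while the untailed 23 nt reads were 2631 and 4113. The lower share thus went with more untailed reads and not with fewer tailed ones. Among reads with a templated part of 22 nt, 1.78% and 1.46% were tailed, with intervals that overlap. The tailed share of miR-21a-5p was below the medians of 6.63% in DMSO and 7.16% in PD over the 160 miRNAs, and 107 and 105 of them had a higher share.

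The seed of miR-21a-5p came almost wholly from this locus. RefSeq holds a second mouse miRNA with the same seed, miR-21c, at chr8:128278188-128278208 on the minus strand, and the related miR-21b, at chr3:29636768-29636790 on the plus strand, whose seed differs. They are printed to show how far their 3′ parts depart from miR-21a-5p, with the seed in capitals.
miR-21c: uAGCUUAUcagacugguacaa
miR-21b: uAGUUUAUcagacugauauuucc
Tags that matched either hairpin were not read, with 0 reads for each in each library, which allows up to 0.159 RPM in DMSO and 0.143 RPM in PD. Of all reads with the seed at bases 2 to 8, 10921 in DMSO and 11261 in PD, 94.7% (94.2 to 95.1) and 94.3% (93.8 to 94.7) were templated Mir21a reads. A further 464 and 505 were tailed miR-21a-5p reads, and 119 and 139 were other tags.

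Other miRNAs that ERK, AP-1 or the cAMP-responsive factor CREB are known to regulate were set beside miR-21 as a list of 14 arms, from miR-221, miR-222, miR-155, miR-132, miR-212, miR-143 and miR-145a. Of these, 8 were detected and 5 of the 8 stood below DMSO, as did 337 of all 499 detected miRNAs. Past 1.5-fold were 3 lower and 0 higher, against 13.8% and 6.01% of all detected miRNAs. Of the 3, miR-221-5p reached 1 RPM in DMSO alone, where the filter favors a lower call. Of the 7 arms with 1 RPM in both libraries 2 were past 1.5-fold lower, miR-222-3p and the rare miR-212-5p. miR-221-3p, at 0.672 times DMSO, fell just short of the criterion. Over the 8 arms the median log2 fold change was -0.44 against -0.17. With hairpin reads as the denominator 2 were past 1.5-fold lower, against 30 of all detected miRNAs, and 5 still stood below DMSO. The median log2 fold change of all detected miRNAs was then 0.03.

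miR-222-3p, which represses the cell cycle inhibitor p27, had 1116 reads in DMSO and 516 in PD, or 59.1 and 24.6 RPM, a fold change of 0.417 (0.375 to 0.463). Its cluster partner miR-221-3p, with the same seed, had 788 and 588 reads, or 41.8 and 28.1 RPM, a fold change of 0.672 (0.603 to 0.749). miR-21a-5p at 0.924 (0.899 to 0.949) stood above both, with intervals that do not overlap theirs. The rarer miR-221-5p had 36 and 20 reads, a fold change of 0.501 (0.275 to 0.888).

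miR-212-5p, from a cluster that CREB induces, had 34 and 24 reads, a fold change of 0.636 with an interval of 0.361 to 1.10. miR-155-5p, an AP-1 target of immune cells, had 37 and 33 reads, a fold change of 0.804 (0.487 to 1.32). The smooth muscle and mesenchymal miR-143-3p had 1901 and 2117 reads, or 101 RPM in each library, and its fold change was 1.00 (0.943 to 1.07). Its other arm miR-143-5p also stood at 1.00 (0.805 to 1.25), and miR-145a-5p of the same cluster at 1.03 (0.799 to 1.33). Within this list the miR-221 and miR-222 pair thus stood furthest below DMSO among the arms with over 100 reads. The fold change of miR-21a-5p lay between this pair and the miR-143 cluster. Its interval, 0.899 to 0.949, overlaps those of miR-143-5p and miR-145a-5p widely and that of miR-143-3p only from 0.943 upwards. Such overlap does not decide whether counting separates 2 miRNAs, and the difference from this cluster was not tested.

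**Figure D5:**
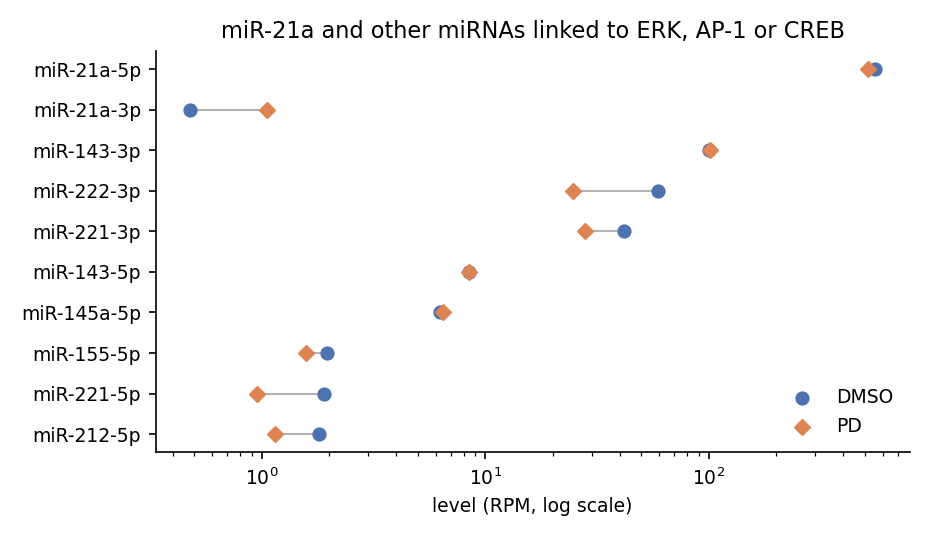
Level in RPM (log scale) of both miR-21a arms and of the 8 detected arms of the list in DMSO (circles) and PD (diamonds). miR-21a-5p lies at 557 and 515 RPM, with a direction that turns with the denominator. miR-222-3p goes from 59.1 to 24.6 RPM, and miR-143-3p lies at 101 RPM in each library. The other scalings shift all fold changes upwards alike, so that miR-143-3p is level with clean reads alone.

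Because miR-21 is abundant in fibroblasts and other differentiated cells, miRNA markers of such cells were read beside it. Of 6 fibroblast and mesenchymal markers, 3 reached 1 RPM in each library. The summed level of the 6 was 200.1 RPM in DMSO and 170 RPM in PD, or 0.848 times DMSO. This lower sum came almost wholly from miR-199a-3p, which several genes encode, with 91.9 and 61.4 RPM. The other 2 did not fall, miR-143-3p with 101 RPM in each library and miR-145a-5p with 6.25 and 6.45 RPM. Below 1 RPM, miR-214-3p, of a primary transcript shared with miR-199a, had 0 and 1 read. miR-199a-5p had 8 and 6 reads and miR-10b-5p 15 and 12 reads. Of 3 blood cell markers, 1 reached 1 RPM, with a sum of 16.1 and 14.9 RPM, and miR-223-3p was at 0 reads in both libraries. The neural markers went opposite ways, miR-124a-3p with 255 RPM in DMSO and 472 RPM in PD and miR-9-5p with 17.4 and 13.7 RPM. Their sum was 273 and 486 RPM. The liver marker miR-122-5p had 2.91 and 2.01 RPM. The part of other cells in the miR-21a-5p level was not tested, and in bulk RNA fewer cells of a kind and less miR-21 per cell cannot be told apart.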

How the data were processed

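Small RNA of J1 mESCs treated with DMSO or PD was sequenced as 1 library per treatment, each of RNA pooled over 3 experiments. The authors purified RNA of 18 to 30 nt from a gel, ligated adapters, sequenced on an Illumina instrument, removed adapters, low-quality reads and reads under 18 nt, and deposited for each distinct tag its raw count, without normalization. Gel purification and ligation can favor some lengths and 3′ ends over others. The submitters' processing notes name mm9, but the deposited counts carry no coordinates. Here tags were matched to GENCODE M21 hairpins on GRCm38, with miRNA names and mature sequences from RefSeq (GRCm38.p6), in Python 3.11.15 with numpy 2.4.6. Of 1139 mature miRNAs with reads, 842 had a RefSeq name. Arms were split by ViennaRNA 2.7.2, each arm was represented by the tag with the most reads in total, and a tag was counted when it shared 16 nt or more with that one. A tag that matched several miRNAs counted for each.

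RPM were computed per 1000000 clean reads, with exact Clopper-Pearson 95% intervals from SciPy 1.17.1. A miRNA was detected at 1 RPM in either library, and past the criterion at 1.5-fold. Reads are PCR products without molecular identifiers, so that the intervals cover counting error only. edgeR 4.0.16 and DESeq2 1.42.0 in R 4.3.3 gave alternative scalings, and edgeR's exact test was given an assumed coefficient of biological variation (BCV), since quasi-likelihood tests need replicates. The counting and calling steps were tested on simulated data. Named were both arms of Mir21a, arms that share its seed, the 5 nearest fold changes at 100 RPM or more, the neighbours in level, the list linked to ERK, AP-1 or CREB, and cell type markers. Further miRNAs above miR-21a-5p in length difference were chosen after their values were seen. The members and lists were chosen with earlier results of these data known.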

Additional observations from a re-analysis of the deposited data

How the results depend on the processing

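With 1 library per treatment, no replicate could be left out. No paired analysis was possible because each treatment was 1 library of pooled RNA. The miR-21a-5p fold change, 0.924 as reported, was 1.06 with hairpin reads as the denominator, 1.12 with reads of 20 to 24 nt, 1.04 with TMM, 1.04 with DESeq2 size factors, 1.41 with the most frequent tag only and 1.04 with the RefSeq tag only, the last an alternative chosen after seeing the data. It reached 1.5-fold under none of its 13 alternatives, and the other 7 left it below 1. Its percentile among detected miRNAs moved from 55.7 to 89.4 with the most frequent tag only. The miR-21a-3p fold change was above 1 under 13 of 13 alternatives, at 1.54 to 3.604, and rests on 31 reads in all. The share of miR-21a-5p reads in the most frequent tag was 24.0% in DMSO and 36.4% in PD once tailed tags were included. The counts of miRNAs past the criterion, 69 lower and 30 higher as reported, were 30 and 48 with hairpin reads, 23 and 59 with reads of 20 to 24 nt, 34 and 43 with TMM and with DESeq2, 25 and 7 at 10 RPM or more, 297 and 263 without a filter, and 16 and 10 at 2-fold. With an adjusted p from edgeR's exact test as a further criterion they were 1 and 1 at an assumed BCV of 0.2, and 26 and 10 at 0.1. Depth limits the 3p arm and the arms of the list with under 40 reads, and the spread between cultures was not measured for any value.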

Other observations

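The host transcript left few fragments. Outside annotated hairpins, tags that matched a Vmp1 transcript perfectly gave 54 reads over 18 tags in DMSO and 46 reads over 17 tags in PD, or 2.86 and 2.20 RPM, against 557 and 515 RPM for miR-21a-5p. These are fragments of a size-selected library and do not measure the Vmp1 mRNA.

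Reads of miR-21a-5p with 1 internal mismatch to the hairpin were 44 in DMSO and 61 in PD, or 0.417% (0.303 to 0.559) and 0.563% (0.431 to 0.722) of the 5p reads, with intervals that overlap. Changes from A to G, the kind that ADAR editing leaves, were 4 and 10 of these reads, and sequencing error was not separated from editing.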
